A study of Drosophila melanogaster with 2 samples.

Results

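Peaks of GFP-tagged Dachshund were examined on chromosome 4 and in the heterochromatin of Drosophila melanogaster. The members were all peaks on chromosome 4 in the 4 peak lists on build dm6, together with all peaks on dm3 chromosomes whose names end in Het or begin with U or Y in the 4 corresponding dm3 lists. There were 633 members among the 188302 peaks of the 8 lists. On chromosome 4 they numbered 434 of the 94137 dm6 peaks, and in heterochromatin 199 of the 94165 dm3 peaks. The same site recurs across lists, so the 434 peaks covered 293 separate regions and the 199 peaks covered 153.

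Chromatin immunoprecipitation sequencing (ChIP-seq) used an anti-GFP antibody and whole prepupae of both sexes from a transgenic line in which dac carries a C-terminal eGFP. The only group was this dac-GFP line, with 2 biological replicates that the labels number 1 and 3. Each replicate, and both replicates pooled, had a relaxed list of 30000 peaks. The authors' IDR list (irreproducible discovery rate, a method that compares peak ranks between replicates) held 4137 peaks on dm6 and 4165 on dm3. Not every IDR peak was in both replicate lists. Of the 4137, 4022 overlapped a replicate 1 peak and 4111 a replicate 3 peak. No input, mock or untagged library was analysed here, and signal averaged over a whole animal does not say which cells it came from.

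Chromosome 4 is the small dot chromosome of the fly. Most of its length is heterochromatin-like, with dispersed transposable elements and coating by the proteins HP1a and POF, yet its genes are active and include well-known developmental regulators. The Het and U scaffolds of dm3 are assembled pieces of pericentric heterochromatin and sequence that had not been placed on an arm. Dachshund is a nuclear protein related to the Ski and Sno co-repressors, and it acts in eye, leg and mushroom body development.

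The replicates differed widely in these regions. Replicate 1 listed 300 peaks on chromosome 4, and replicate 3 listed 34. Replicate 1 listed 150 heterochromatin peaks on dm3, and replicate 3 listed 10. The results are therefore given for each replicate beside the pooled and IDR lists. The read depth behind each list is unknown. No test over samples was possible with 1 group of 2 samples, and intervals cover only the number of peaks counted.

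Only 6 peaks of the IDR list lay on chromosome 4. The sequences around their summits are printed because they are the sites on this chromosome that the authors' replicate procedure retained, and each was also found in the relaxed list of both replicates. The sequences come from the Release 6 reference assembly (dm6, forward strand) and run 100 bases to each side of the summit, stopping at the end of the peak. Each line is named for the gene with the nearest protein-coding transcription start site (TSS). Capitals mark matches on either strand to any of 9 motifs of up to 8 letters, among them TATCGATA (bound by DREF), CATTCC (bound by Scalloped) and CAGGTA (bound by Zelda).
RpS3A (chr4:67182-67382): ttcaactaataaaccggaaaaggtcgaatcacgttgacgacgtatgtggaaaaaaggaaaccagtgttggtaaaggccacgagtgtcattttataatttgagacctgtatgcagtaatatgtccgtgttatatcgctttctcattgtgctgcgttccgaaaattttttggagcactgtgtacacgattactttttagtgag
lgs (chr4:424719-424918): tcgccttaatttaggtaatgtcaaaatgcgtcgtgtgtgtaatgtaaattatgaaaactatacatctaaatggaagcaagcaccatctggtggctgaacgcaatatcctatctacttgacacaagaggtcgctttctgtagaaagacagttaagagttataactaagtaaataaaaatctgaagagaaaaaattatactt
gw (chr4:659969-660169): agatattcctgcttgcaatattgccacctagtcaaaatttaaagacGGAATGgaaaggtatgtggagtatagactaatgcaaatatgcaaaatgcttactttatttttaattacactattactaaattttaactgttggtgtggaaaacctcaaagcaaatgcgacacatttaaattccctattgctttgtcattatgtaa
Sox102F (chr4:807531-807731): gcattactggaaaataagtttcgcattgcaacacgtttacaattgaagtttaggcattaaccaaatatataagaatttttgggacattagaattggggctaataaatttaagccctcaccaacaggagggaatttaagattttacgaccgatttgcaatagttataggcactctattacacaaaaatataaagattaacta
PlexA (chr4:1027148-1027348): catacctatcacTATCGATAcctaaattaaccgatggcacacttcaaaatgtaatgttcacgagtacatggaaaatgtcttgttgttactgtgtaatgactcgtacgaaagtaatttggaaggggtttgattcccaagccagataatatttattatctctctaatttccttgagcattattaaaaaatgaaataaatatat
Cals (chr4:1113283-1113483): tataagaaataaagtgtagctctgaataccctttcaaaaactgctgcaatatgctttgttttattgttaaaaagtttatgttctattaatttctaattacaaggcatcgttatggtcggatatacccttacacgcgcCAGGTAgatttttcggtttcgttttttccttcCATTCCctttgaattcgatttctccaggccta

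The strongest of the 6 was a 252 bp peak in the 3′ UTR of Cals, which encodes the transmembrane cadherin-family protein Calsyntenin-1 (chr4:1113251-1113502). Its signal, a value of the authors without a stated scale, was 380.06. Its rank was 514 in the pooled list, 1138 in replicate 1 and 347 in replicate 3. The summit lay 9582 bp from the Cals TSS and 66 bp past the end of sv, the Pax2 gene shaven, which runs toward Cals on the opposite strand. No peak of the IDR or pooled list had sv as its nearest gene, a rule that goes by TSS distance and so assigned this site to Cals.

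The next peak was intergenic and narrow, at 209 bp (chr4:424710-424918). It had a signal of 337.17 and ranked 641 in the pooled list, 947 in replicate 1 and 508 in replicate 3. Its nearest protein-coding TSS was that of lgs, 19092 bp away. The lgs product, Legless, is the BCL9 adaptor that links Armadillo to Pygopus in Wnt signalling. The nearest TSS of any kind was that of a long non-coding RNA, lncRNA:CR43437, at 1248 bp.

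The other 4 peaks were at promoters, defined as within 500 bp of a TSS. The peak at Sox102F, a SoxD transcription factor gene, had a signal of 222.99 and lay within the gene, 284 bp upstream of an internal TSS (chr4:807426-807835). Its rank was 1408 in the pooled list, 1110 in replicate 1 and 1854 in replicate 3. At RpS3A, which encodes a small-subunit ribosomal protein, the signal was 204.19 and the summit was 75 bp upstream (chr4:67077-67486), with ranks of 1604, 2433 and 1423 in the same order of lists. The peaks at gw and PlexA were weaker, with signals of 115.12 and 115.11 (chr4:659864-660273 and chr4:1027043-1027452). The gw gene encodes GW182, which acts in microRNA silencing, and PlexA encodes a semaphorin receptor. The gw peak ranked 6596 in replicate 1 and 3341 in replicate 3, and the PlexA peak 11542 in replicate 1 and 3109 in replicate 3. The 4 strongest sites thus stood among the top 2433 peaks of both replicates, whereas gw and PlexA stood lower in replicate 1. None of the 6 summits lay in a transposable element, and the nearest element was between 1092 and 2671 bp away.

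On dm3 the IDR list also held 6 chromosome 4 peaks, with the same widths and with signals from 114.84 to 379.81. On dm6 the range was 115.11 to 380.06, so the change of build left these sites alike.

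Of the printed windows, PlexA held TATCGATA, gw held CATTCC on the reverse strand, and Cals held CAGGTA and CATTCC. Those at RpS3A, lgs and Sox102F held no match. TATCGATA was found in 1.98% of windows of the same length tiled along chromosome 4, against 0.550% of those on the other arms. CATTCC was in 7.43% of chromosome 4 windows and 9.48% of windows elsewhere, and CAGGTA in 6.74% and 4.58%. Among the 300 chromosome 4 peaks of replicate 1, 13 held TATCGATA within 100 bp of the summit (4.33%, 95% exact binomial interval 2.33 to 7.30), against 0.820% of all peaks of that list. Among the 34 of replicate 3 it was 1 peak (2.94%, 0.0744 to 15.3) against 1.36%, and among the 94 pooled peaks it was 2 (2.13%, 0.259 to 7.48) against 1.01%. TGATAC, the core bound by the Sine oculis family, was in 6.99% of chromosome 4 windows. It was at 30 of 300 summits in replicate 1 (10%, 6.85 to 13.97), at 3 of 34 in replicate 3 (8.82%, 1.86 to 23.7) and at 8 of 94 pooled summits (8.51%, 3.75 to 16.1), and each interval includes the chromosome's share. The proneural E-box CAGCTG was at 4.26% of pooled chromosome 4 summits against 8.96% of the list, and in 4.44% of chromosome 4 windows against 8.43% elsewhere. The nuclear receptor site AGGTCA was at 5.32% of summits against 3.84% of the list, and in 4.74% of chromosome 4 windows. The repeat bound by the Trl product, GAGAGAG, was at 2.13% against 4.77%, and in 1.77% of windows. The Homothorax site TGACAG was at 5.32% against 7.53%, and in 6.68% of windows. None of the 94 held GGTCACAC (M1BP), against 0.967% of the list and 0.302% of windows. These pooled shares rest on 0 to 8 peaks each. A match to letters is not evidence of binding.

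The density of peaks on chromosome 4 depended on the list. The IDR list held 4.45 peaks per Mb of chromosome 4 (95% exact Poisson interval 1.63 to 9.69, n = 6 peaks), against 31.2 per Mb on the other 5 arms, a ratio of 0.143. The pooled relaxed list held 69.7 per Mb (56.3 to 85.3, n = 94) against 225.7, a ratio of 0.309. In replicate 1 the density was 222.5 per Mb (198.1 to 249.2, n = 300) against 224.1, a ratio of 0.993. In replicate 3 it was 25.2 per Mb (17.5 to 35.2, n = 34) against 226.1, a ratio of 0.112. Chromosome 4 was therefore as densely listed as the rest of the genome in replicate 1, and sparse in replicate 3. It has 59.3 protein-coding genes per Mb, against 93.3 to 113.0 on the other arms. Per 100 protein-coding genes, chromosome 4 had 7.50 peaks in the IDR list against 29.8 on the other arms, 117.5 in the pooled list against 215.7, 375 in replicate 1 against 214.2, and 42.5 in replicate 3 against 216.1.

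**Figure D1:**
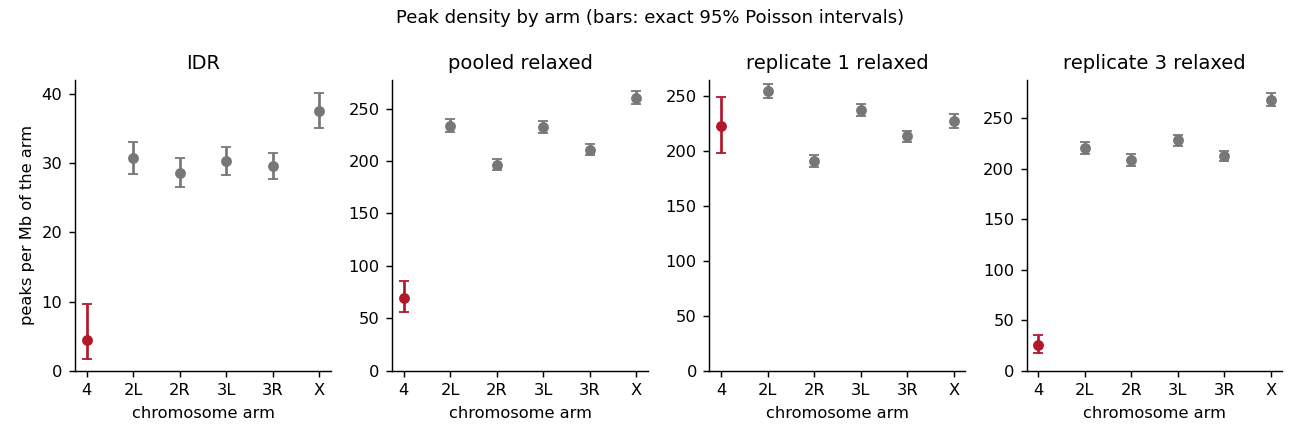
Peaks per Mb (y axis, from 0) on chromosome 4 (red) and the other arms (grey), 1 panel per list on dm6, with exact 95% Poisson intervals as bars. Chromosome 4 lies far below the other arms in the IDR, pooled and replicate 3 lists, and among them in the replicate 1 list at 222.5 per Mb.

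Among the strongest peaks the replicates had equal numbers on chromosome 4, though not the same sites. Of the 4137 highest-signal peaks of each replicate, 9 lay on chromosome 4 in replicate 1 and 9 in replicate 3, a density 0.214 times that of the other arms in both. Of the 9 in replicate 1, 4 overlapped a peak anywhere in the replicate 3 list, and all 9 in replicate 3 overlapped one of replicate 1. Of the strongest 4165 peaks on dm3, 4 lay in heterochromatin in replicate 1 and 1 in replicate 3. Over the whole lists, the ratio of replicate 1 to replicate 3 peaks was 8.82 on chromosome 4 and 15 in heterochromatin. On the other arms it ranged from 0.848 on X to 1.16 on 2L. In steps of 5000 ranks from the strongest down, replicate 1 listed 14, 43, 57, 54, 68 and 64 peaks on chromosome 4, and replicate 3 listed 9, 6, 8, 5, 2 and 4. A share equal to that of arm length (1.01%) would be 50.3 peaks per step. Replicate 1 passed that level from rank 10001 on, and replicate 3 stayed below it at every step.

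**Figure D2:**
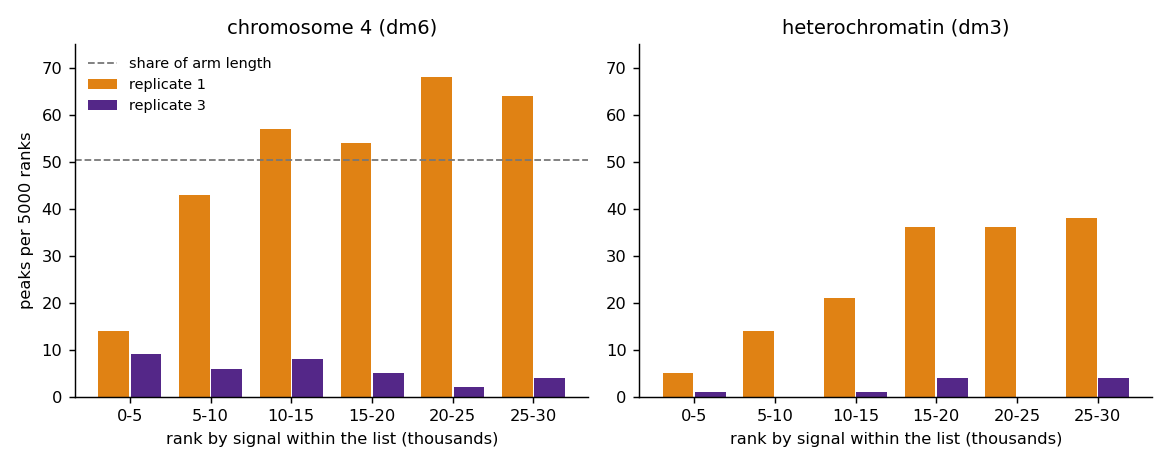
Number of members (y axis) in successive steps of 5000 ranks by signal (x axis, strongest at left) in replicate 1 (orange) and replicate 3 (purple), for chromosome 4 on dm6 and heterochromatin on dm3. The dashed line marks 50.3 peaks, the count at the chromosome's share of arm length. Replicate 1 bars grow toward weak ranks, and replicate 3 bars stay at 9 or fewer.

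Few of the chromosome 4 peaks in replicate 1 met a q-value of 0.05, whereas most of those in replicate 3 did. In replicate 1 they were 16 of 300 (5.33%, 3.08 to 8.52), against 17.6% of all peaks of the list. In replicate 3 they were 21 of 34 (61.8%, 43.6 to 77.8), against 46.1%. In the pooled list they were 22 of 94 (23.4%, 15.3 to 33.3), against 30.6%. The median chromosome 4 peak stood above 38.9% of its list in replicate 1, 59.6% in replicate 3 and 48.4% in the pooled list. With q limited to 0.05, chromosome 4 made up 1.99 times as large a share of the replicate 1 list as of the replicate 3 list, in place of 8.82 times.

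Replicate 3 peaks on chromosome 4 were mostly found in replicate 1, but not the reverse. Of the 34 in replicate 3, 28 overlapped a replicate 1 peak by at least 1 bp (82.4%, 65.5 to 93.2), against 56.7% over the whole list. Of the 300 in replicate 1, 26 overlapped a replicate 3 peak (8.67%, 5.74 to 12.4), against 54.7%. With more than 8 times as many peaks in one list as in the other on this chromosome, these shares cannot be alike. Among peaks at q of 0.05 or less the gap remained, with 5 of 16 replicate 1 peaks found in replicate 3 (31.3%, 11.0 to 58.7) against 95.1% of all such peaks. In the other direction it was 19 of 21 (90.5%, 69.6 to 98.8) against 73.6%.

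The 5 shared replicate 1 peaks at that q were those at lgs, Sox102F, Cals and RpS3A, and a peak nearest to ci. They ranked 947, 1110, 1138, 2433 and 4482 in replicate 1, in that order. The ci gene encodes the Hedgehog pathway transcription factor. Its peak lay outside ci, 2000 bp upstream of the nearest ci TSS, in an intron of another annotated gene. The 11 that had no counterpart in replicate 3 ranked from 3467 to 5203. They included 6 promoter peaks, those of CaMKII, a synaptic protein kinase gene (rank 3467), of Mitf, a transcription factor gene of lysosome control (3593), of Cals (4144), of Asator, a tau-tubulin kinase gene (4495), of Gyf, a translational repressor gene (5072), and of CaMKI (5203). By annotation, the 16 peaks were 8 at promoters, 3 in introns, 2 in coding sequence, 2 intergenic and 1 in a UTR. Of the 94 pooled peaks, 26 overlapped a peak of both replicates (27.7%, against 56.7% of the pooled list). Another 53 overlapped a peak of replicate 1 only (56.4%, against 17.1%), and 4 a peak of replicate 3 only (4.26%, against 21.1%). The remaining 11 overlapped neither (11.7%, against 5.02%). The 6 IDR peaks were among the 26, and the pooled list as a whole overlapped the IDR list more often, in 16.7% of its peaks against 6 of 94 here (6.38%, 2.38 to 13.4).

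Just below the IDR list on chromosome 4 stood the promoter peak of Gyf, with a signal of 108.58 (pooled rank 4202). It had no counterpart in replicate 3. The next were the promoter of Cadps, which acts in dense-core vesicle release, at 96.6, the promoter of ey at 93.1, and a site 552 bp upstream of the TSS of Asator at 92.9. The peak nearest to ci, outside the gene and 2074 bp upstream of its nearest TSS, had 85.6. Promoter peaks of apolpp, which encodes the lipophorin precursor, of Arl4 and of Arf4, both small GTPase genes, had 84.9, 80.2 and 79.5. An intron peak of Sox102F closed the strongest 15 at 74.9. Of these 9, the peaks at ey, ci, apolpp, Arl4 and the Sox102F intron were seen in both replicates, and those at Gyf, Cadps, Asator and Arf4 in replicate 1 only.

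**Figure D3:**
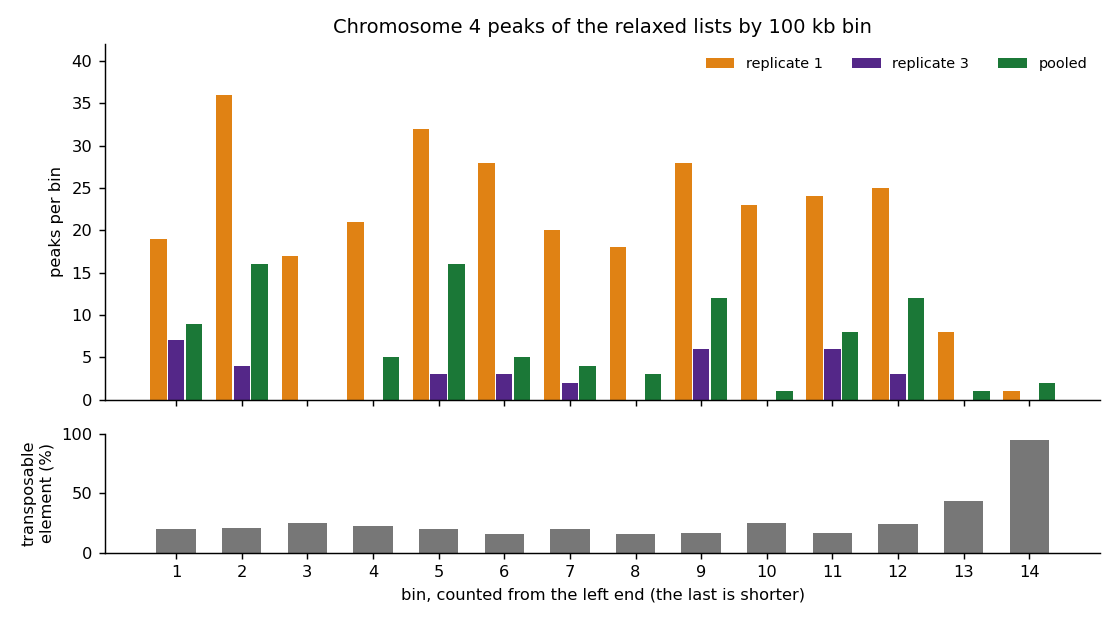
Upper panel, peaks per 100 kb bin (y axis) along chromosome 4 (x axis, bins counted from the left end) in the relaxed lists of replicate 1 (orange), replicate 3 (purple) and the pooled replicates (green). Lower panel, percent of each bin annotated as transposable element. Replicate 1 is the higher of the replicates in all 14 bins, and replicate 3 has no peak in 6 of them.

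The replicate 1 peaks were spread along the chromosome. They numbered 8 to 36 in each full bin of 100 kb, with 1 in the shorter bin at the right end, and had a median spacing between summits of 2248 bp. Replicate 3 had 0 to 7 peaks per bin and no peak in 6 bins, and the pooled list had 0 to 16 with 1 empty bin. The last bins, next to the right end, were 43.5% and 95.4% transposable element and had 8 and 1 replicate 1 peaks and none in replicate 3. The median spacing in replicate 1 on the other arms was 1672 to 1886 bp.

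Summits on chromosome 4 fell at promoters in 36 of 94 pooled peaks (38.3%, 28.5 to 48.9), against 23.4% on the other arms. In replicate 3 it was 15 of 34 (44.1%, 27.2 to 62.1) against 26.8%. In replicate 1 it was 60 of 300 (20%, 15.6 to 24.98) against 20.6%. Promoter windows cover 10.1% of the bases of chromosome 4 and 13.2% of those of the other arms. The pooled excess at promoters over the other arms was thus seen in replicate 3 and not in replicate 1. Against the 10.1% of bases, the replicate 1 share of 20% was still higher, and its interval excluded the share of bases.

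**Figure D4:**
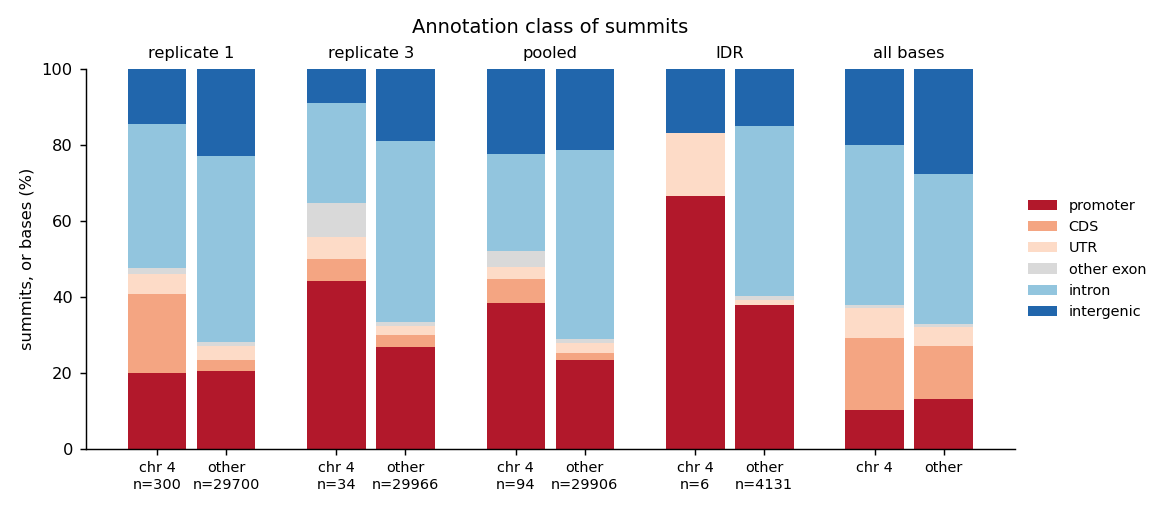
Percent of summits (y axis) in each annotation class for the replicate 1, replicate 3, pooled and IDR lists, and percent of all bases at the right, with chromosome 4 beside the other arms in each pair and the number of peaks under each bar. Coding sequence holds 20.7% of replicate 1 summits on chromosome 4, against 2.68% on the other arms.

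Coding sequence was the class in which replicate 1 differed most from the other arms. It held 62 of 300 chromosome 4 summits in replicate 1 (20.7%, 16.2 to 25.7), against 2.68% on the other arms. Coding bases outside promoter windows make up 18.9% of chromosome 4 and 13.9% of the other arms. In replicate 3, 2 of 34 summits were in coding sequence (5.88%, 0.720 to 19.7) against 3.19%. All 62 of the coding summits in replicate 1 were in peaks absent from replicate 3: among the 274 absent peaks they made up 22.6% (17.8 to 28.0), and among the 26 shared peaks there were none. On the other arms, 0.970% of shared and 4.79% of absent replicate 1 peaks had coding summits. The 26 shared peaks had 13 summits at promoters (50%), and the 274 absent ones 47 (17.2%). On the other arms the promoter share was also higher for shared peaks, at 26.1% against 13.85% of absent ones. In replicate 1, coding summits on chromosome 4 were thus seen only among the absent peaks, though the interval for the 26 shared ones reached 13.2%. A lower coding share among shared peaks was also seen on the other arms. Of the 28 replicate 3 peaks found in replicate 1, 1 had a coding summit (3.57%, 0.0904 to 18.3).

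Transposable elements cover 24.8% of chromosome 4. They held 23 of 94 pooled summits (24.5%, 16.2 to 34.4), 58 of 300 in replicate 1 (19.3%, 15.02 to 24.3) and 2 of 34 in replicate 3 (5.88%, 0.720 to 19.7). On the other arms elements cover 5.74% of the length. There they held 0.308% of pooled, 0.680% of replicate 1 and 0.187% of replicate 3 summits. None of the 23 pooled summits in elements on chromosome 4 had q of 0.05 or less, against 22 of the 71 outside, and their best rank was 12696. Of the 23, 18 overlapped a peak of replicate 1 and 3 a peak of replicate 3, beside 61 and 27 of the 71 outside. Over the whole pooled list these overlaps were 73.9% and 77.8%. INE-1, a short and abundant non-autonomous element, held 15 of the 23 pooled and 43 of the 58 replicate 1 summits, and its 344 annotated copies cover 7.23% of the chromosome. How reads that match several copies were placed is not given in the sources used here. With summits in elements left out, chromosome 4 still made up 7.61 times as large a share of the replicate 1 list as of the replicate 3 list. The GC content around summits had a median of 35.6% in replicate 1 and 36.3% in replicate 3, close to the 35.3% of the chromosome, while the other arms had medians of 39.8% and 41.8%.

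Bins of the other arms that are rich in transposable elements were set beside chromosome 4. In the 50 bins of 100 kb with at least 25% of their length in elements, replicate 1 had 441 peaks and replicate 3 had 196, a ratio of 2.25, and replicate 1 was the higher in 41 of the 50. In the 1276 other bins the ratio was 0.983, and replicate 1 was the higher in 46.0%. At a minimum of 15% the ratio was 1.32 over 120 bins, and at 50% it was 9.13 over 22 bins. The IDR list had 12.5, 4.40 and 1.36 peaks per Mb in bins with at least 15%, 25% and 50% of element sequence, beside 4.45 on chromosome 4. Of the replicate 1 peaks in bins with at least 25%, 23.4% overlapped a replicate 3 peak and 8.16% had summits in coding sequence. At minimums of 15% and 50%, 39.6% and 8.22% overlapped a replicate 3 peak, and 4.40% and 7.53% had coding summits. The gap between replicates was thus not confined to chromosome 4, and it was wider in bins with more element sequence. Chromosome 4, at 24.8% element sequence, had a ratio of 8.82, whereas the 50 bins averaged 46.8% and had a ratio of 2.25. Around replicate 1 summits on chromosome 4, the median GC content was 35.6% both for peaks shared with replicate 3 and for those absent from it. The part of element content, GC content and weak ranks in the gap was not tested.

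Chromosome 4 carries 80 protein-coding genes in the annotation used. In the IDR list, 6 of them were the nearest gene of a peak (7.50%, 2.80 to 15.6), against 17.3% of the 13945 protein-coding genes of all arms. In replicate 1 it was 64 (80.0%, 69.6 to 88.1) against 50.6%, and in replicate 3 it was 17 (21.3%, 12.9 to 31.8) against 49.4%. A total of 16 genes had peaks in both replicates, 15 in neither, and 1 in replicate 3 only, Mpv17, which encodes a mitochondrial inner membrane protein. Most pooled peaks were assigned to Sox102F with 10, Cals with 8, Asator with 7 and dati, a zinc-finger gene of neurons, with 6. They were followed by ci, anne and ey with 5 each.

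The 11 patterning transcription factor genes on the chromosome had 93 peaks in replicate 1, 16 in replicate 3, 31 in the pooled list and 1 in the IDR list. All 11 had a peak in replicate 1, and 6 had one in replicate 3. Over all 80 genes of the chromosome the shares were 80% in replicate 1 and 21.3% in replicate 3, and the counts for the gene groups stand beside these. Sox102F led, with 17 peaks in replicate 1 and 6 in replicate 3. The ci gene had 7 in replicate 1 and 5 in replicate 3, whereas zfh2, a zinc-finger homeodomain gene, had 16 and 2, and dati had 14 and 1. The Pax6 gene ey had 10 peaks in replicate 1 and 1 in replicate 3, its promoter peak, which ranked 10915 in replicate 1 and 3791 in replicate 3. Its paralogue toy had 8 peaks in replicate 1, at rank 8286 or weaker, and none in the pooled or replicate 3 lists. Peaks in replicate 1 only were also listed at fuss, a gene of the Ski and Sno family, with 7, at sv and Mitf with 4 each, and at onecut with 2. Their best ranks in replicate 1 were 7567 at fuss, 7573 at sv, 3593 at Mitf and 15777 at onecut. The TCF gene pan had 4 peaks in replicate 1 and 1 in replicate 3.

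Peaks are counted here for the gene with the nearest protein-coding TSS, so a gene without one may still contain or adjoin a peak. Of the 3 genes for TGF-beta ligands, Actbeta had 4 peaks and mav 1 in replicate 1, and myo had none in any list. In the Wnt group, lgs had 7 peaks in replicate 1 and 1 in replicate 3, and pan is given above. Among 9 axon guidance and synapse genes, 8 had a peak in replicate 1 and only PlexA, with 3 peaks, in replicate 3. The 9 had 30 peaks in replicate 1, 3 in replicate 3 and 7 in the pooled list, of which Cadps took 3. Of 15 housekeeping genes, 10 had a peak in replicate 1 and 4 in replicate 3 (RpS3A, gw, Asator and Tdg, a DNA glycosylase gene). The 5 that were the nearest gene of no peak in any list were ATPsynbeta, Rad23, eIF4G1, ND-49 and Dyrk3. The pooled peak assigned to the Cadps promoter (chr4:1230697-1231106) nevertheless spanned the start of Dyrk3, at 1230713, and a replicate 1 summit at 917545 lay within eIF4G1. The giant muscle protein gene bt had 9 peaks in replicate 1 and none in replicate 3 or the pooled list.

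In the dm3 heterochromatin, 2 peaks reached the IDR list. The stronger was on U, 257 bp wide from 7531616 to 7531872, with a signal of 323.38. Its rank was 696 in the pooled list, 987 in replicate 1 and 585 in replicate 3, so both replicates placed it high. The other was on XHet, from 50069 to 50478, with a signal of 148.85. Its rank was 2591 in the pooled list and 1667 in replicate 1, and it had no counterpart in replicate 3. The next pooled peaks were on 3LHet at 95.9 (1395181 to 1395590) and on U at 86.9 (6559979 to 6560388). That U peak ranked 1954 in replicate 1 and 28484 in replicate 3. They were followed by a 3RHet peak at 75.1 (2378077 to 2378486), ranked 4116 in replicate 1 and absent from replicate 3. No dm3 genome or annotation was used here, so no gene or density is given for these sites. No member lay on Y.

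Most heterochromatin peaks came from the autosomal Het scaffolds in replicate 1. On 3LHet there were 66 in replicate 1 and 1 in replicate 3, on 2RHet 41 and 1, on 3RHet 28 and 0, and on 2LHet 2 and 1. XHet had 5 in replicate 1 and 1 in replicate 3. U had 7 in replicate 1 and 4 in replicate 3, and Uextra had 1 and 2, so the wide gap was on 3LHet, 2RHet and 3RHet. In the pooled list 3LHet had 14, 2RHet and 3RHet 6 each, U 5, XHet 3, 2LHet 2 and Uextra 1.

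**Figure D5:**
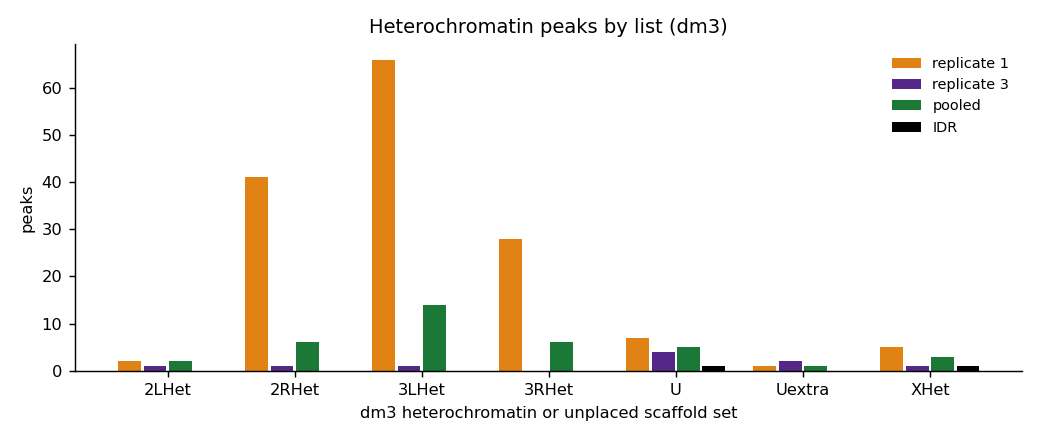
Number of peaks (y axis) on each dm3 heterochromatin or unplaced scaffold set (x axis) in the replicate 1 (orange), replicate 3 (purple), pooled (green) and IDR (black) lists. The replicate 1 bars reach 66 on 3LHet, and replicate 3 has no more than 4 on any set.

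The heterochromatin peaks were weak within their lists. In steps of 5000 ranks, replicate 1 had 5, 14, 21, 36, 36 and 38 of them, and the median member stood above 33.6% of the list. In the pooled list the median member stood above 22.7% of all peaks. A q of 0.05 or less was given to 5 of 150 in replicate 1 (against 17.2% of the list), to 2 of 10 in replicate 3 (against 44.7%) and to 6 of 37 in the pooled list (16.2%, 6.19 to 32.0, against 29.9%). Of the 150 in replicate 1, 6 overlapped a replicate 3 peak (4%, 1.48 to 8.503), against 54.6% of the list. Of the 10 in replicate 3, 5 overlapped a replicate 1 peak (50%, 18.7 to 81.3), against 57.0%. Of the 37 pooled peaks, 3 overlapped an IDR peak (8.11%, 1.70 to 21.9), against 16.9%. As on chromosome 4, the shared sites were few and the replicate 1 surplus was largest among weak peaks. At ranks 1 to 5000 there were 5 replicate 1 peaks against 1 in replicate 3 here, and 14 against 9 on chromosome 4. At ranks 5001 to 10000 there were 14 against 0 here, and 43 against 6 on chromosome 4. The cause of the surplus was not tested.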

How the data were processed

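ChIP-seq peak lists of 2 biological replicates were used as deposited. Per the file headers and the column order of the narrowPeak format, the authors gave each peak a signal, without a stated scale, and a −log10 q, which was turned into a q-value. They also gave a summit position. The sources used here do not give the aligner, peak caller, IDR threshold or read depth. The labels state an age of 48 days, which disagrees with the prepupal stage and was not used. Build dm6 matched the Release 6 arm lengths, and genes came from Ensembl 115. With dm3 neither genome nor annotation was used. Columns that could not be tied to a sample or pool numbered 0.

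Signal was compared between lists by rank only. A summit within 500 bp of a TSS of a protein-coding or non-coding RNA gene was classed as promoter, and the rest in the order coding sequence, UTR, other exon, intron and intergenic. Overlap meant 1 bp. Shares carry exact Clopper-Pearson and densities exact Poisson intervals (95%), which cover counting only. Motifs were searched within 100 bp of summits on both strands. All 9 motifs are named with their results. Named genes were those nearest the IDR peaks, the 15 strongest pooled peaks, the 5 genes with most pooled peaks (with ties) and all members of 6 gene lists. For 3 symbols the current name was used, and sphinx, a non-coding gene, was not counted. CaMKII and Mpv17 fall outside this rule and were named after their values were seen. Members and lists were chosen with earlier results of these data known. Functions were tested on simulated peaks. Python 3.11.15, pandas 2.3.3, numpy 2.4.6, scipy 1.17.1 and matplotlib 3.10.9 were used.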

Additional observations from a re-analysis of the deposited data

How the results depend on the processing

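The IDR list held 6 chromosome 4 peaks on dm3 as on dm6, and their density was 2.97 per Mb above the median signal and 6.68 among the strongest peaks of either replicate alone, beside 4.45. A 50% reciprocal overlap gave shares of 6.38%, 70.6% and 50% for pooled peaks in the IDR list, replicate 3 peaks in replicate 1 and the same in heterochromatin. The pooled density of chromosome 4, 69.7 peaks per Mb, was 222.5 without replicate 3, 25.2 without replicate 1 and 16.3 at q of 0.05 or less. The promoter share of 38.3% ranged from 20% without replicate 3 to 44.1% without replicate 1, and from 26.6% to 51.1% with narrower and wider promoter windows. The 37 pooled heterochromatin peaks became 150 without replicate 3 and 10 without replicate 1, and their median percent of the list below became 33.6 and 40.4. The 2 heterochromatin peaks of the IDR list became 1 above the median signal. The strongest peaks of single replicates held 4 without replicate 3 and 1 without replicate 1.

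The chromosome 4 share of replicate 1 over that of replicate 3, 8.82, was 1.99 at q of 0.05 or less, 1.00 among the strongest 4137 peaks and 5.21 among promoter summits. It was 9.83 on dm3, 7.61 outside transposable elements and 7.41 without coding sequence. These alternatives, the element minimums for bins and the promoter shares by replicate were chosen after seeing the data. No paired analysis was possible because there is 1 group. Unknown depth limits every list, and a missing peak is not evidence of no binding.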
